A study of Mus musculus with 12 samples.

Results

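The genes described here are 9 members of the phosphoinositide 3-kinase (PI3K) pathway and its transcriptional read-outs in mouse CD4+ T cells: Pik3ip1, Pik3cd, Pik3r1, Inpp5d, Inpp4b, Akt1, Phlpp1, Sgk1 and Tsc22d3. They were taken by name from the 55487 genes of the deposited expression tables, and each name matched 1 gene. The libraries came from Rinl-KO mice and from wild-type (WT) mice, whose CD4+ T cells were sorted from spleen and peripheral lymph nodes to study what Rinl, a Ras and Rab interactor-like protein that activates RAB5 GTPases, does in these cells. Effector cells were sorted as CD62L-CD44hi and naive cells as CD62L+CD44lo. There were 3 libraries in each of 4 groups: KO effector (libraries 10 to 12), WT effector (4 to 6), KO naive (7 to 9) and WT naive (1 to 3). The sources used here do not give the part of Rinl that was altered, the age of the mice or the number of mice behind a library. The labels also do not say whether the 3 libraries of a group come from different mice, and the p-values therefore speak only of the spread among these libraries, which may be technical.

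PI3K enzymes pair a catalytic with a regulatory subunit and, after antigen receptor and CD28 signals, make the lipid PIP3 at the plasma membrane. PIP3 recruits AKT and, through mTOR complexes, leads to activation of SGK kinases, both of which phosphorylate FOXO transcription factors and so keep them out of the nucleus. Lipid phosphatases remove PIP3 or its products, PHLPP phosphatases inactivate AKT, and Pik3ip1 restrains the kinase at the membrane. Naive T cells hold this pathway low and keep FOXO-driven genes on, among them homing and survival receptors.

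The libraries held from 11606251 to 20381010 counts in KO effector, 12893396 to 16428862 in WT effector, 20072199 to 24320247 in KO naive and 12409965 to 19584111 counts in WT naive cells. All 9 members were among the 15905 genes that passed the filter on low counts, with at least 238 counts in every library. Rinl had 45.8, 47.5 and 49.4 CPM (counts relative to library size, with TMM factors) in KO effector libraries against 437, 451 and 463 CPM in WT effector libraries, and 32.6, 32.2 and 34.4 CPM in KO naive libraries against 298, 299 and 286 CPM in WT naive libraries. The 7 CD4 T cell markers summed to between 3670 and 4184 CPM in every library. The 5 naive markers summed to 607.5 to 676.4 CPM in KO effector, 691 to 710.8 CPM in WT effector, 4611 to 4884 CPM in KO naive and 4762 to 5041 CPM in WT naive libraries, higher in every naive than in every effector library. These are bulk samples, in which fewer cells of a type and less RNA per cell cannot be told apart.

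Pik3ip1 fell by 21.7% in KO effector cells and fell by 14.6% in KO naive cells, and Sgk1 fell by 19.1% in KO effector cells. The naive Pik3ip1 result (edgeR adjusted p = 0.0083) and the Sgk1 result (0.045) did not pass in some of the alternative fits given below. The other 7 genes did not pass the test in either cell type. A gene is called here when its adjusted p in edgeR's quasi-likelihood test, corrected over all 15905 genes by the Benjamini-Hochberg method, is below 0.05. In effector cells 2 of 9 members were called for KO against WT, both lower, beside 3.16% of all genes tested (1.45% higher and 1.72% lower). In naive cells 1 of 9 was called, also lower, beside 1.18% of all genes (0.679% higher and 0.497% lower). The median log2 fold change of the 9 members was -0.07 in effector and 0.04 in naive cells, where the median over all genes was 0.0022 and 0. Between effector and naive cells, by contrast, 9 of 9 members were called in KO cells (58.4% of all genes) and 8 of 9 in WT cells (56.2%).

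**Figure D1:**
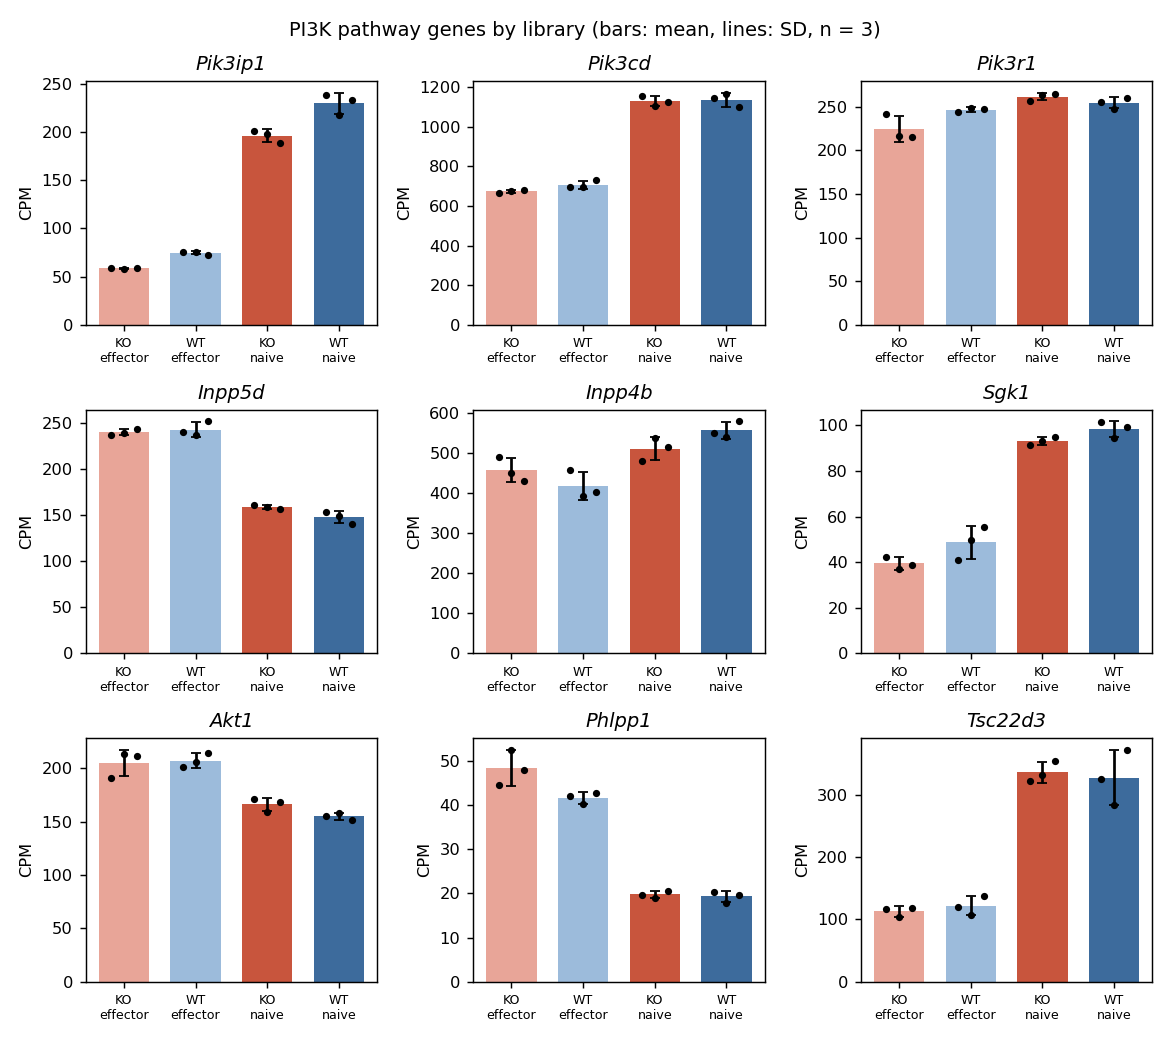
CPM of each of the 9 genes in each library, with bars for the mean and lines for the SD of 3 libraries in KO effector, WT effector, KO naive and WT naive cells. Pik3ip1 lies lower in every KO library than in any WT library of the same cell type. The step between effector and naive cells is larger than that between genotypes for Pik3ip1, Sgk1, Tsc22d3, Phlpp1, Pik3cd, Inpp5d and Akt1.

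Pik3ip1 (ENSMUSG00000034614, GRCm38 chromosome 11, 3330401 to 3342971, plus strand) encodes a transmembrane protein that binds the catalytic subunit of PI3K and lowers its activity. It had 58.7, 57.5 and 59.1 CPM in KO effector libraries against 75.2, 75.8 and 72.8 CPM in WT effector libraries. In naive cells it had 201, 198 and 188.5 CPM in KO libraries against 239, 217 and 233 CPM in WT libraries. The KO and WT libraries did not overlap in either cell type. In effector cells Pik3ip1 fell by 21.7% in KO cells, a log2 fold change of -0.35 ± 0.0505 (SE; 95% interval -0.46 to -0.25; edgeR adjusted p = 2.1e-04). In naive cells it fell by 14.6%, a log2 fold change of -0.23 ± 0.0440 (95% interval -0.32 to -0.14; edgeR adjusted p = 0.0083). Among all genes tested, 7.20% had a log2 fold change as low or lower in effector and 9.73% in naive cells. The difference between the 2 effects, effector minus naive, was -0.12 (95% interval -0.26 to 0.01; edgeR adjusted p = 0.60) and did not pass.

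The effector result of Pik3ip1 kept its call in every alternative processing and every fit with a library left out. The naive result lost it without library 1, 3, 8 or 9 (edgeR adjusted p between 0.053 and 0.10) and with limma on log2 FPKM (0.068 and 0.052), at log2 values of -0.23 to -0.19. The antisense transcript Gm12592 overlaps an exon of Pik3ip1. It had 247 counts over the 12 libraries, where Pik3ip1 had at least 706 in each, and the sources used here do not say whether counting used strand.

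The catalytic and regulatory subunits differed little between genotypes. Pik3cd (ENSMUSG00000039936, GRCm38 chromosome 4, 149649168 to 149702571, minus strand) encodes the delta catalytic subunit, the form enriched in leukocytes. It had 668, 673.8 and 682.8 CPM in KO effector libraries against 695.8, 695.8 and 731.8 CPM in WT effector libraries. It had 1156, 1107 and 1126 CPM in KO naive libraries against 1145, 1168 and 1099 CPM in WT naive libraries. The effector libraries did not overlap and the naive libraries did, but the log2 fold changes of KO against WT of -0.07 in effector (edgeR adjusted p = 0.46) and -0.01 in naive cells (adjusted p = 0.96) did not pass. Their 95% intervals were -0.16 to 0.02 in effector and -0.10 to 0.08 in naive cells.

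Pik3r1 (ENSMUSG00000041417, GRCm38 chromosome 13, 101680563 to 101768217, minus strand) encodes a regulatory subunit that stabilises the catalytic subunit and holds it inactive until it binds phosphorylated receptors or adaptors. It had 241, 216.5 and 215.5 CPM in KO effector libraries against 243.5, 248.5 and 247.6 CPM in WT effector libraries. It had 256.5, 263 and 265 CPM in KO naive libraries against 255.5, 248 and 260.5 CPM in WT naive libraries. Every KO effector library was below every WT effector library, with KO library 10 close to the WT values. The log2 fold change of KO against WT was -0.14 ± 0.0459 in effector cells (edgeR adjusted p = 0.12) and 0.04 ± 0.0453 in naive cells (adjusted p = 0.80). Without library 10 the effector value was -0.19 and passed (adjusted p = 0.019).

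Neither lipid phosphatase passed for KO against WT in either cell type. Inpp5d (ENSMUSG00000026288, GRCm38 chromosome 1, 87620312 to 87720507, plus strand) encodes SHIP-1, a haematopoietic enzyme that takes a phosphate off PIP3. It had 237, 238.4 and 243.1 CPM in KO effector libraries against 239.4, 236.5 and 251.7 CPM in WT effector libraries, which overlapped. It had 161, 159 and 156 CPM in KO naive libraries against 153, 149 and 140.5 CPM in WT naive libraries, which did not. The log2 fold change was -0.02 ± 0.0429 in effector cells (edgeR adjusted p = 0.88) and 0.11 ± 0.0437 in naive cells (adjusted p = 0.32).

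Inpp4b (ENSMUSG00000037940, GRCm38 chromosome 8, 81342556 to 82127914, plus strand) encodes the phosphatase that acts on the product of SHIP-1. It had 489.7, 450.0 and 430.3 CPM in KO effector libraries against 457.7, 392 and 403.2 CPM in WT effector libraries. It had 480.1, 538.4 and 514.6 CPM in KO naive libraries against 550.3, 539.8 and 579.5 CPM in WT naive libraries. The effector libraries overlapped, while all 3 KO naive libraries lay below the WT naive libraries. The log2 fold change of KO against WT was 0.13 in effector cells (edgeR adjusted p = 0.29) and -0.12 in naive cells (adjusted p = 0.42).

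The AKT branch gave values near those of WT in naive cells and a higher, uncalled value of Phlpp1 in effector cells. Akt1 (ENSMUSG00000001729, GRCm38 chromosome 12, 112653821 to 112674884, minus strand) encodes the kinase that PIP3 recruits to the membrane. It had 191, 213 and 211 CPM in KO effector libraries against 201, 206 and 214 CPM in WT effector libraries, which overlapped. It had 171, 159 and 169 CPM in KO naive libraries against 155, 158 and 151 CPM in WT naive libraries, where the lowest KO library was just above the highest WT library. The log2 fold change was -0.01 ± 0.0480 in effector cells (edgeR adjusted p = 0.93) and 0.10 ± 0.0483 in naive cells (adjusted p = 0.42).

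Phlpp1 (ENSMUSG00000044340, GRCm38 chromosome 1, 106171752 to 106394250, plus strand) encodes a phosphatase that dephosphorylates AKT. It had 44.5, 52.5 and 47.9 CPM in KO effector libraries against 42.0, 40.2 and 42.7 CPM in WT effector libraries, without overlap. It had 19.6, 19.1 and 20.6 CPM in KO naive libraries against 20.4, 17.8 and 19.7 CPM in WT naive libraries, which overlapped. The log2 fold change was 0.22 ± 0.0680 in effector cells (95% interval 0.08 to 0.36; edgeR adjusted p = 0.086) and 0.04 ± 0.0781 in naive cells (adjusted p = 0.91). Across the alternatives the effector value ran from 0.15 to 0.28, with adjusted p from 0.027 to 0.44, and it passed only without library 10.

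Sgk1 (ENSMUSG00000019970, GRCm38 chromosome 10, 21882184 to 21999903, plus strand) encodes a kinase related to AKT that acts downstream of PI3K, phosphorylates FOXO factors and is known in CD4+ T cells for its part in helper cell differentiation. It had 42.3, 37.2 and 38.7 CPM in KO effector libraries against 41.0, 49.9 and 55.2 CPM in WT effector libraries. It had 91.5, 92.9 and 94.9 CPM in KO naive libraries against 101, 94.4 and 99.1 CPM in WT naive libraries. The groups overlapped in both cell types: WT effector library 4 lay below KO effector library 10. In effector cells Sgk1 fell by 19.1% in KO cells, a log2 fold change of -0.31 ± 0.0813 (95% interval -0.48 to -0.14; edgeR adjusted p = 0.045). In naive cells the log2 fold change was -0.08 ± 0.0706 (95% interval -0.23 to 0.07; edgeR adjusted p = 0.73).

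The call of Sgk1 rests on the choice of libraries and model. It was lost without any 1 of 10 libraries, those other than 4 and 10 (edgeR adjusted p between 0.054 and 0.24), in a fit of the effector libraries alone (0.17) and with limma on log2 FPKM (0.13 and 0.15). The log2 value ran from -0.42 without WT library 4 to -0.20 without WT library 6. It was negative in every one of these fits.

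Tsc22d3 (ENSMUSG00000031431, GRCm38 chromosome X, 140539528 to 140600659, minus strand) encodes GILZ, the glucocorticoid-induced leucine zipper, whose gene FOXO factors also induce. It had 117, 103 and 119 CPM in KO effector libraries against 119, 108 and 138.0 CPM in WT effector libraries, and 322, 332 and 354 CPM in KO naive libraries against 326, 284 and 373 CPM in WT naive libraries. The libraries overlapped in both cell types, with an SD of 44.4 CPM in WT naive libraries. The log2 fold change was -0.11 ± 0.114 in effector (edgeR adjusted p = 0.70) and 0.04 ± 0.105 in naive cells (adjusted p = 0.93).

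Counted over the set, 4 of 9 members had non-overlapping KO and WT libraries in effector cells (Pik3ip1, Pik3cd, Pik3r1 and Phlpp1), where 17.9% of all genes did. In naive cells it was also 4 of 9 (Pik3ip1, Inpp5d, Inpp4b and Akt1), where 20.5% of all genes did. At an unadjusted p below 0.05, 5 members passed in effector cells, beside 16.1% of all genes, and 2 in naive cells, beside 11.9%. The KO effect did not pass as different between cell types for any member: 0 of 9 were called for effector minus naive in edgeR, where 0.145% of all genes were. DESeq2 and limma also called 0, and 3 had an unadjusted edgeR p below 0.05, beside 9.19% of all genes. These were Inpp4b (0.25, 95% interval 0.08 to 0.43, adjusted p = 0.31), Pik3r1 (-0.17, -0.31 to -0.04, adjusted p = 0.37) and Sgk1 (-0.23, -0.45 to -0.0026, adjusted p = 0.54). With no filter on low counts Inpp4b was called (edgeR adjusted p = 0.023).

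**Figure D2:**
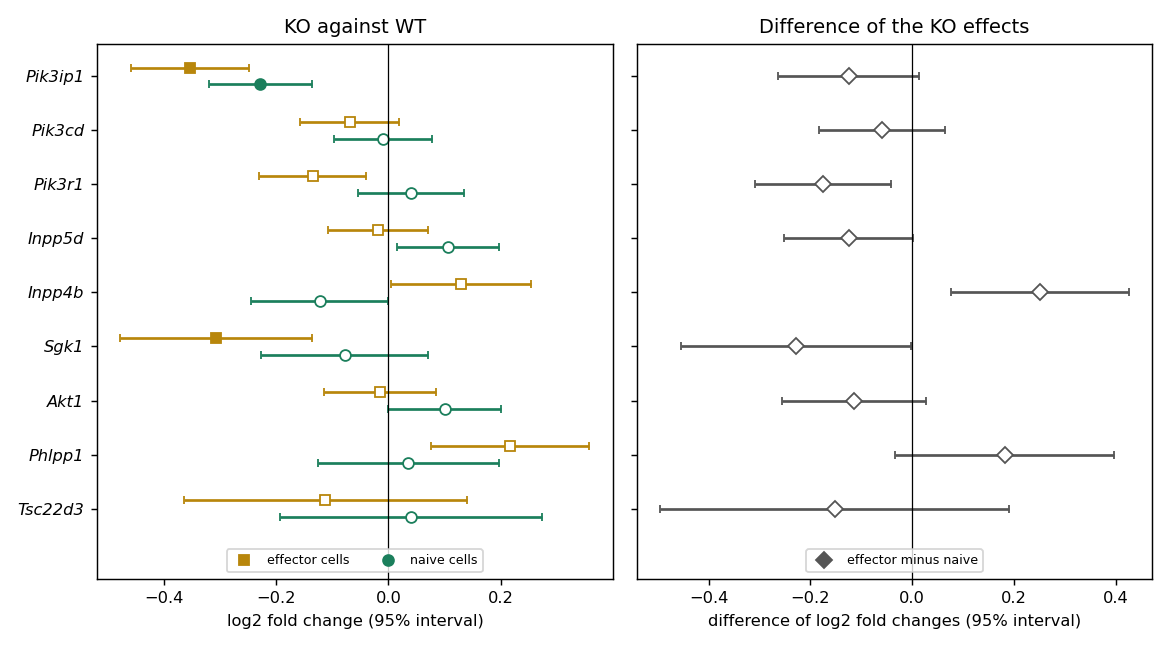
Log2 fold change of KO against WT for each gene in effector cells (squares) and naive cells (circles), left, and the difference of these effects, effector minus naive (diamonds), right, with 95% intervals. Filled symbols passed at an adjusted p below 0.05: Pik3ip1 in both cell types and Sgk1 in effector cells; no difference on the right passed.

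Some markers of other T cell states were called for KO against WT in effector cells. Beside them, edgeR called 3.16% of all genes tested in effector cells (1.45% higher and 1.72% lower) and 1.18% in naive cells. The 5 regulatory T cell markers summed to 1434 to 1675 CPM in KO effector libraries against 1226 to 1414 CPM in WT effector libraries, with 2 of 5 called higher, and none of the 5 was at 0. The NK, NKT and gamma-delta markers, 5 of the 6 listed matched, summed to 81.7 to 104.1 CPM in KO effector libraries against 128.4 to 134.7 CPM in WT effector libraries, with 2 of 5 called lower. The 5 effector or memory markers summed to 2062 to 2275 CPM in KO effector libraries against 2541 to 2610 CPM in WT effector libraries, with 1 called lower, and the naive markers also had 1 called lower. The B cell markers had 1 of 7 tested called lower. The summed B cell, CD8 T cell and myeloid markers were at most 33.5 CPM in any library. In naive cells the regulatory T cell markers summed to 159 to 174 CPM in KO naive against 133 to 148 CPM in WT naive libraries, with 0 of 5 called by edgeR. The effector or memory markers summed to 169.6 to 183 CPM in KO naive against 153 to 172 CPM in WT naive libraries, with 1 of 5 called higher: Il2rb, an IL-2 and IL-15 receptor subunit, at 102 to 110.3 CPM in KO naive against 83.0 to 95.9 CPM in WT naive libraries (edgeR adjusted p = 0.011). The 8 B cell markers summed to 4.88 to 6.56 CPM in KO naive against 2.05 to 3.92 CPM in WT naive libraries, and the 8 myeloid markers to 12.7 to 22.0 CPM in KO naive against 4.94 to 12.9 CPM in WT naive libraries. Siglech, a plasmacytoid dendritic cell marker, and Zbtb16, the NKT cell factor, were at 0 in all 3 WT naive libraries. They were also near 0 in KO naive libraries, at 0 to 0.128 CPM for Siglech and 0.0432 to 0.0850 CPM for Zbtb16. The lowest Siglech value was 0 CPM in every group. The part of these markers in the lower Pik3ip1 and Sgk1 of KO cells was not tested.

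The step from naive to effector cells was larger and touched nearly the whole set. Effector cells had less Pik3ip1, Tsc22d3, Sgk1, Pik3cd and Inpp4b and more Phlpp1, Inpp5d and Akt1 than naive cells, in both genotypes. In KO cells 3 members rose and 6 fell, beside 31.6% and 26.8% of all genes. In WT cells 3 rose and 5 fell, beside 30.2% and 25.9%. The median absolute log2 fold change of the 9 was 0.74 in KO and 0.72 in WT cells, against 0.31 over all genes in both. Effector and naive libraries did not overlap for 8 of 9 members in KO cells, all but Inpp4b, where 63.9% of genes did not, and for 8 of 9 in WT cells, all but Pik3r1, where 61.5% did not.

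Pik3ip1 fell most. Its mean was 58.5 ± 0.860 CPM in KO effector against 196 ± 6.67 CPM in KO naive libraries (SD, n = 3 each), a log2 fold change of -1.75 ± 0.0481 (SE; edgeR adjusted p = 3.5e-19). In WT cells the mean was 74.6 ± 1.58 CPM in effector against 229.6 ± 11.1 CPM in naive libraries, a log2 fold change of -1.62 ± 0.0474 (edgeR adjusted p = 1.0e-18). The fold of effector over naive was 0.298 in KO and 0.325 in WT cells, and 1.53% of all genes in KO and 1.67% in WT cells had a log2 fold change as low or lower.

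Tsc22d3 and Sgk1 followed. Tsc22d3 averaged 113 ± 8.54 CPM in KO effector against 336 ± 16.5 CPM in KO naive libraries and 122 ± 15.3 CPM in WT effector against 327 ± 44.4 CPM in WT naive libraries. Its log2 fold change of effector against naive was -1.57 ± 0.111 in KO and -1.42 ± 0.111 in WT cells (edgeR adjusted p = 2.4e-07 and 6.4e-07). Sgk1 averaged 39.4 ± 2.65 CPM in KO effector against 93.1 ± 1.70 CPM in KO naive libraries and 48.7 ± 7.16 CPM in WT effector against 98.3 ± 3.56 CPM in WT naive libraries. Its log2 fold change was -1.24 ± 0.0763 in KO and -1.01 ± 0.0758 in WT cells (edgeR adjusted p = 2.8e-11 and 6.6e-10). Both genes respond to glucocorticoids in many tissues, and Tsc22d3 to FOXO factors.

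Among the subunits, Pik3cd fell and Pik3r1 moved less. Pik3cd averaged 675 ± 7.44 CPM in KO effector against 1130.0 ± 24.7 CPM in KO naive libraries, a log2 fold change of -0.74 ± 0.0423, and in WT cells the log2 fold change was -0.68 ± 0.0423 (edgeR adjusted p = 2.2e-13 and 1.2e-12). Pik3r1 fell by 0.22 on the log2 scale in KO cells (edgeR adjusted p = 2.0e-04) and had a log2 fold change of -0.05 ± 0.0458 in WT cells (adjusted p = 0.42). The difference between these, -0.17, is the same contrast as above and did not pass.

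The phosphatases moved in opposite directions. Inpp5d rose in effector cells, by 0.59 ± 0.0431 on the log2 scale in KO and 0.72 ± 0.0438 in WT cells (edgeR adjusted p = 2.1e-11 and 9.4e-13). Inpp4b fell by 0.16 in KO and by 0.41 in WT cells (edgeR adjusted p = 0.023 and 3.8e-06). The KO value of Inpp4b did not pass with limma on log2 FPKM (adjusted p = 0.060 and 0.059) or without library 8, 11 or 12 (edgeR adjusted p = 0.089, 0.071 and 0.11). Phlpp1 rose most, by 1.29 ± 0.0709 in KO and 1.11 ± 0.0750 in WT cells on the log2 scale (edgeR adjusted p = 1.1e-13 and 6.1e-12). Akt1 rose by 0.30 ± 0.0478 in KO and 0.42 ± 0.0485 in WT cells (edgeR adjusted p = 7.6e-06 and 8.6e-08).

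**Figure D3:**
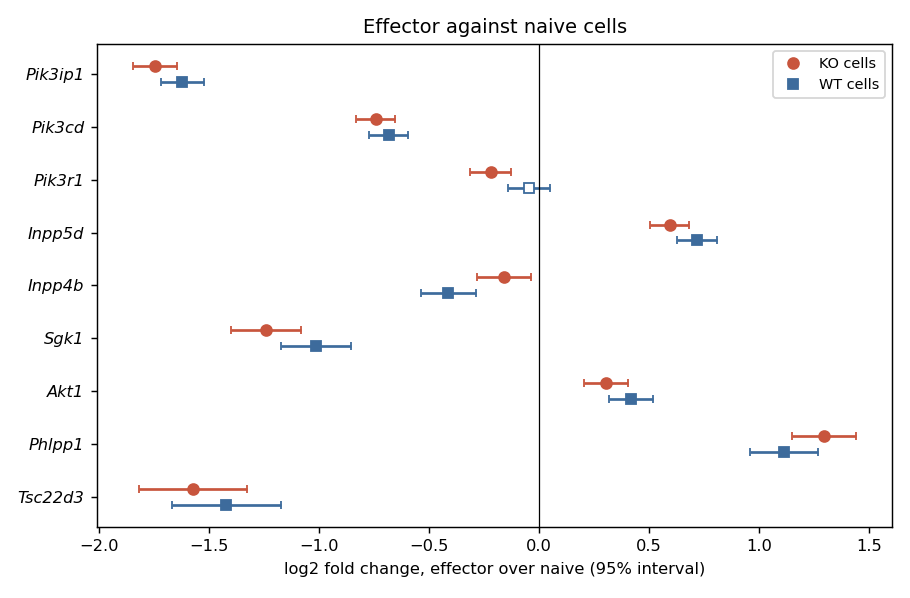
Log2 fold change of effector against naive cells for each gene in KO cells (circles) and WT cells (squares), with 95% intervals; filled symbols passed at an adjusted p below 0.05. Pik3ip1, Tsc22d3 and Sgk1 lie farthest to the left and Phlpp1 farthest to the right, and Pik3r1 in WT cells is the open symbol.

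Levels were compared between genes by FPKM, the deposited counts per length, which the authors scaled by library. Pik3cd was the highest of the 9 in every group, at 125 to 128 FPKM in KO effector, 129.5 to 137 in WT effector, 207 to 217 in KO naive and 206 to 218 in WT naive libraries, and Phlpp1 the lowest, at means of 7.73, 6.64, 3.16 and 3.07 FPKM in the same groups. In naive cells of both genotypes the order below Pik3cd was Tsc22d3, Pik3ip1, Akt1, Inpp4b, Pik3r1, Inpp5d, Sgk1 and Phlpp1. The libraries of Akt1 and Inpp4b overlapped in WT naive cells, and other neighbours in the naive order did not overlap. In KO effector cells the order was Pik3cd, Akt1, Inpp5d, Inpp4b, Tsc22d3, Pik3r1, Pik3ip1, Sgk1 and Phlpp1. WT effector cells had Tsc22d3 above Inpp4b and the same order otherwise. Inpp5d, Inpp4b and Tsc22d3 were not separated from their neighbours among these 3 in effector cells of either genotype. Pik3ip1 ranked 3 of 9 in naive cells, at 66.1 ± 2.26 FPKM in KO naive and 77.1 ± 3.73 FPKM in WT naive libraries. It ranked 7 of 9 in effector cells, at 19.7 ± 0.291 FPKM in KO effector and 25.1 ± 0.502 FPKM in WT effector libraries.

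**Figure D4:**
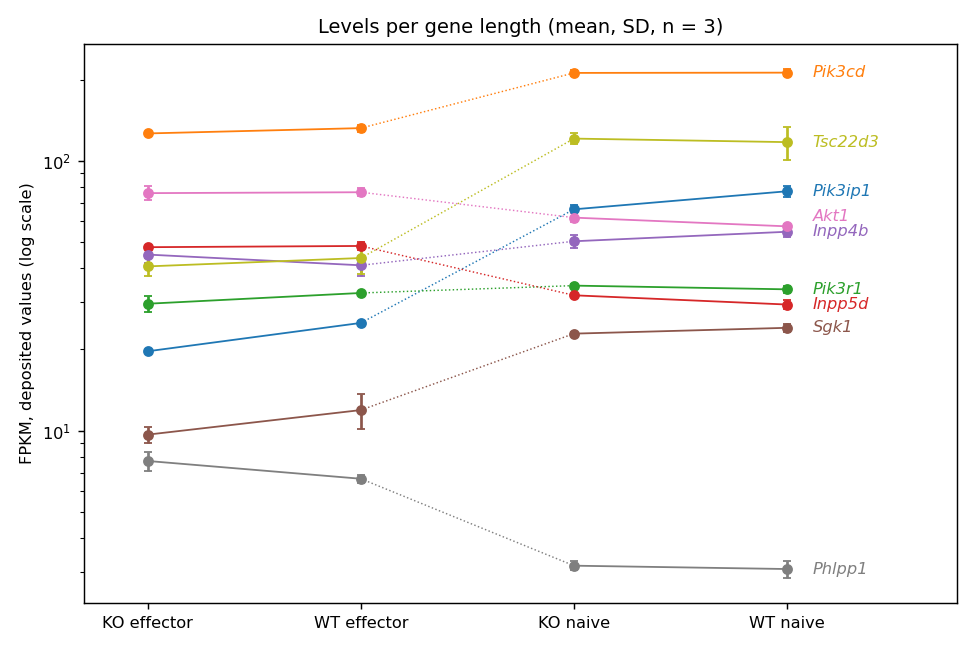
Mean FPKM of each gene (log scale, lines for the SD of 3 libraries) in KO effector, WT effector, KO naive and WT naive cells; dotted lines join the cell types. Pik3cd is highest in every group, and Pik3ip1 and Tsc22d3 lie among the 3 highest in naive cells and below Akt1 and Inpp5d in effector cells.

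Set beside their families by share of summed FPKM, Pik3cd, Akt1, Sgk1 and Phlpp1 were the leading form in every group. Among the lipid phosphatases Inpp5d had the highest share in effector cells (36.95% in KO and 38.8% in WT). Inpp4b had it in naive cells (47.05% in KO and 50.1% in WT). Pik3cd made up 79.5% of the summed FPKM of 4 class I catalytic subunits in KO effector and 80.5% in WT effector cells, and 88.0% in KO naive and 88.2% in WT naive cells. Pik3r1 was above Pik3r2 and Pik3r3 in every group and below Pik3r5, a partner of the gamma catalytic subunit. It held 36.7% of the FPKM of 5 regulatory subunits in KO effector, 36.4% in WT effector, 29.4% in KO naive and 27.9% in WT naive cells. In the same groups Pik3r5 held 48.4%, 49.5%, 63.0% and 64.7%. Pik3r2 held 14.3%, 13.5%, 6.96% and 6.7%, and Pik3r3 at most 0.676%. Akt1 held 62.7% and 63.1% of the AKT sum in KO and WT effector cells and 56.7% and 55.1% in KO and WT naive cells. Sgk1 held 80.8% and 82.5% of the SGK sum in KO and WT effector cells and 66.1% and 65.7% in KO and WT naive cells, with Sgk3 nearly all of the rest. Tsc22d3 held 43.4% and 45.7% of its family's sum in KO and WT effector cells, near or below the 49.5% and 48.0% of Tsc22d4. In KO and WT naive cells it held 72.6% and 72.1%.

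Pik3ip1, Tsc22d3 and Sgk1 fell together between cell states, and their promoters are shown for the letters of factors that act on such genes. RefSeq windows of GRCm38.p6, from 250 bases before to 50 after a transcript start, matched all 9 members and held 20 starts. They were searched on both strands for the FOXO core GTAAACA and for the glucocorticoid receptor motif AGAACA, which share the letters AACA, neither holding the other whole. The Pik3ip1 window, its 1 start, is chr11:3330481-3330780 on the plus strand and held neither motif. The Sgk1 window, of 6 starts the one with most matches, is chr10:21993640-21993939 on the plus strand. The Tsc22d3 window, of 3 starts the one with a match, is chrX:140600473-140600772 on the minus strand. Capitals mark AGAACA or its reverse complement TGTTCT.
Pik3ip1 promoter: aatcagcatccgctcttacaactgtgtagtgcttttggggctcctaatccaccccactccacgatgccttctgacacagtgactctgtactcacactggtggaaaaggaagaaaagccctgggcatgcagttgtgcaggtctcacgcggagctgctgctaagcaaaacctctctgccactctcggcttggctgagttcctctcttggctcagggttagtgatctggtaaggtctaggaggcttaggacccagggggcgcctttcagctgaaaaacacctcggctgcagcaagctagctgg
Sgk1 promoter: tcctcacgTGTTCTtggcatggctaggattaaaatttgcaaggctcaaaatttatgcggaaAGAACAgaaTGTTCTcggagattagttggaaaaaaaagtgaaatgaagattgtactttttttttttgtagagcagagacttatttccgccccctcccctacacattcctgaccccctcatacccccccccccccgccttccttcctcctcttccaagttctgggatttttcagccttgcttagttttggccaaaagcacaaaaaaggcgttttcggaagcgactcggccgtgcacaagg
Tsc22d3 promoter: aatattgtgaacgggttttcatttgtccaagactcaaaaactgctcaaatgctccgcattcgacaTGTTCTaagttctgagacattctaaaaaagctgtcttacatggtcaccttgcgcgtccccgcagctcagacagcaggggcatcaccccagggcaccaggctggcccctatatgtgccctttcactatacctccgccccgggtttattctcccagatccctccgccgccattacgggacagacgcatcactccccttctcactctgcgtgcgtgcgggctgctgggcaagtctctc

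AGAACA was found in 5 of the 20 windows, in Pik3cd, Sgk1 and Tsc22d3, and in 19.0% of all 32851 windows of the table. The Sgk1 window held 3 copies. Of these, 2 face each other 3 bases apart, an arrangement present in 3 of the 32851 windows (0.00913%). GTAAACA was found in 1 of the 20 windows, in Akt1, and in 3.65% of all windows. A match describes only the letters in this window, and nothing was measured of binding there.

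Genes with the profile most like that of Pik3ip1 were found by the root mean square distance between log2 CPM values over the 12 libraries, each gene centred on its own mean, among 9549 genes with a mean of at least 5 CPM. The nearest was Gpr146, a G protein-coupled receptor, at a distance of 0.061. Slc49a4 (0.110), Cmah (0.116), Pdk1 (0.123) and Tet1 (0.125) came next. Gpr146 had 27.7, 26.8 and 31.6 CPM in KO effector libraries against 37.17, 36.04 and 36.82 CPM in WT effector libraries, and 96.8, 96.0 and 98.2 CPM in KO naive libraries against 114, 104 and 107.5 CPM in WT naive libraries. The libraries of the genotypes did not overlap in either cell type. Its log2 fold change of KO against WT was -0.37 in effector cells (edgeR adjusted p = 0.0016) and -0.16 in naive cells (adjusted p = 0.14). Around Sgk1 the nearest were Stmn1 (0.086), Acss2 (0.089), Hs3st3b1 (0.097), Galnt10 (0.0999) and Rasgrp2 (0.103). These distances describe 12 libraries that share the naive to effector step. The libraries include both genotypes, so KO effects like those of Pik3ip1 or Sgk1 are part of what the distance selects. Among members, Tsc22d3 was nearest by distance to Pik3ip1 (0.201) and to Sgk1 (0.232). The highest correlation among members was that of Pik3cd with Pik3ip1 (r = 0.988), and for Sgk1 that of Pik3ip1 (r = 0.982).

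Genes around the members were read in 7 lists. For KO against WT, lipid phosphatases (12 tested) and mTOR complexes and regulators (17) had none called by edgeR or DESeq2 in either cell type. At an unadjusted edgeR p below 0.05 there were 2 and 2 in effector and 1 and 2 in naive cells. This threshold was passed by 16.1% of all genes tested in effector and 11.9% in naive cells. By edgeR 3.16% and 1.18% of all genes were called. Of 13 PI3K subunits and adaptors, Pik3ip1 was the 1 gene called in each cell type, and of 13 AKT and SGK kinases with their upstream or opposing enzymes, Sgk1 was the 1 called, in effector cells. The glucocorticoid response list, 13 genes tested, held the receptor gene Nr3c1 and the relatives of Tsc22d3 beside glucocorticoid-induced genes, and Sgk1 was again the 1 called, in effector cells. DESeq2 called 2 of the subunit list and 1 each of the kinase and glucocorticoid lists in effector cells, and 1, 1 and 0 in naive cells. The list medians of KO against WT were between -0.07 and 0.10 in effector and between -0.04 and 0.02 in naive cells for the 6 lists other than FOXO factors and FOXO-induced genes.

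The FOXO list had 3 of 17 called lower and none higher by edgeR in both effector and naive cells: Pik3ip1, S1pr1, the receptor through which T cells leave lymph nodes, and Il7r, the receptor subunit for the survival cytokine IL-7. Its median log2 fold change was -0.08 in effector and -0.15 in naive cells. At an unadjusted edgeR p below 0.05 there were 7 of 17 in effector cells, 6 of them lower, and 12 of 17 in naive cells, all 12 lower. Of all genes tested, 16.1% in effector and 11.9% in naive cells passed this threshold, and 3.16% and 1.18% were called. DESeq2 called 4 in each cell type. At an unadjusted DESeq2 p below 0.05 there were 5 in effector and 9 in naive cells, all lower. The list was chosen with earlier results known and includes Pik3ip1. S1pr1 had 289, 282 and 295 CPM in KO effector libraries against 342.5, 342 and 337 CPM in WT effector libraries, and 706, 706 and 690 CPM in KO naive libraries against 828, 827 and 793.5 CPM in WT naive libraries. The libraries did not overlap, and its log2 fold change was -0.24 in effector and -0.22 in naive cells (edgeR adjusted p = 0.0016 and 0.0051). Il7r had 446.5, 381 and 387.5 CPM in KO effector libraries against 609, 494 and 527 CPM in WT effector libraries, and 462, 494 and 480.0 CPM in KO naive libraries against 740.3, 595 and 723.5 CPM in WT naive libraries. Its log2 fold change was -0.42 in effector and -0.52 in naive cells (edgeR adjusted p = 0.037 and 0.025), and the libraries did not overlap in either. S1pr1 kept its effector call in all 18 alternatives and its naive call in 16, losing it without library 2 or 9. Il7r kept its call in 10 of 18 in effector cells and 11 of 18 in naive cells. It was lost without library 6, 7, 8, 9, 11 or 12 in effector cells, without library 1, 3, 7, 8 or 9 in naive cells, and with limma in both (adjusted p up to 0.20).

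Among 17 PIP3-binding effectors and TEC family kinases, 1 rose and 3 fell in KO effector cells and 1 fell in KO naive cells by edgeR. Over all genes tested, edgeR called 1.45% higher and 1.72% lower in effector cells. In naive cells it called 0.679% higher and 0.497% lower. DESeq2 called 5 in effector and 0 in naive cells. Dapp1, an adaptor that binds PIP3, rose by 0.20 on the log2 scale in effector cells (edgeR adjusted p = 0.024). Txk, a TEC family kinase without the lipid-binding domain of its relatives, fell by 0.38 (adjusted p = 0.0074), with 89.4, 68.7 and 83.5 CPM in KO effector libraries against 96.3, 108 and 109 CPM in WT effector libraries. Rasa3, a GTPase-activating protein, fell by 0.19 (adjusted p = 0.031) and Prex1, a RAC exchange factor, by 0.18 (adjusted p = 0.034), both in effector cells. Tec, the founding kinase of that family, fell by 0.28 in KO naive cells (edgeR adjusted p = 0.035). Of 18 alternatives, Txk kept its call in 16, Dapp1 in 13, Prex1 in 12, Rasa3 in 11 and Tec in 9. Single libraries whose absence ended a call were 5, 6 and 11 for Dapp1, 6, 10 and 12 for Prex1, 5, 6, 10 and 11 for Rasa3, and 1, 2, 3, 7, 8 and 9 for Tec.

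**Figure D5:**
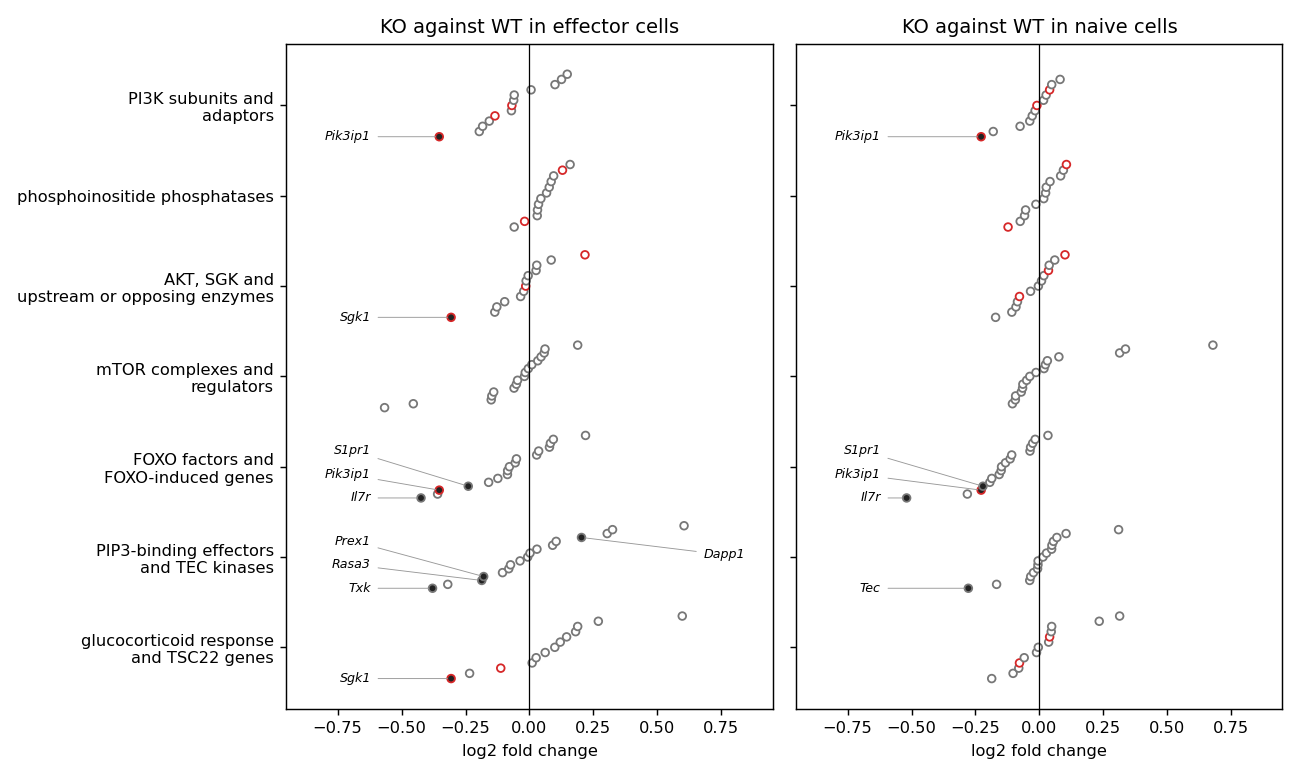
Log2 fold change of KO against WT for every tested gene of 7 lists in effector cells (left) and naive cells (right); filled points passed at an adjusted p below 0.05 and are named, and red outlines mark the 9 genes of the set. Pik3ip1 is the 1 filled point among PI3K subunits and adaptors in both panels, and S1pr1 and Il7r are the others named in the FOXO list.

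Between effector and naive cells every list had genes called higher and genes called lower, as did all genes tested, but most of the FOXO list was lower. Of all genes, 31.6% were called higher and 26.8% lower in KO cells, and 30.2% and 25.9% in WT cells. FOXO factors and FOXO-induced genes had 2 called higher and 11 lower of 17 in KO cells (median -0.29) and 1 higher and 12 lower in WT cells (median -0.47). Ccr7, the lymph node homing receptor, had a log2 fold change of -2.39 and Foxo4 of 0.36 in WT cells. PI3K subunits and adaptors had 5 higher and 6 lower of 13 in KO cells and 3 and 5 in WT cells, with the adaptor Pik3ap1 at 5.50 and the regulatory subunit Pik3r2 at 0.58 in WT cells. The value of Pik3ap1 rests on very low levels of 0.158, 0.483 and 0.580 CPM in WT naive libraries. Phosphoinositide phosphatases had 7 higher and 3 lower of 12 in KO cells and 7 and 4 in WT cells. Inppl1, the relative of SHIP-1 found in most tissues, was at 3.53 in WT cells.

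Of all genes tested, 58.4% in KO and 56.2% in WT cells were called in either direction. The kinase list had 4 higher and 4 lower of 13 in KO cells and 3 and 5 in WT cells. In WT cells its log2 fold changes of effector against naive included Sgk3 at -2.33, the ubiquitin ligase Nedd4l, an SGK substrate, at -1.85 and Phlpp2 at 1.07, beside Sgk1 and Phlpp1 above. The mTOR list had 7 higher and 4 lower of 17 in KO cells and 6 and 5 in WT cells, with Prr5l at 4.49, Eif4ebp1 at 0.94, Rictor at -0.66 and Rps6kb1 at -0.30 in WT cells. Prr5l was likewise very low in WT naive libraries, at 0.2104, 0.2685 and 0.3317 CPM. PIP3-binding effectors and TEC kinases had 7 higher and 8 lower of 17 in both genotypes, with Adap1 at 3.91, Dapp1 at 1.09 and Tec at -1.15 in WT cells. The glucocorticoid response list, receptor and Tsc22d3 relatives included, had 7 higher and 3 lower of 13 in KO cells and 6 and 3 in WT cells. While Sgk1 and Tsc22d3 fell, Klf9 was at 1.41 and Fkbp5 at 1.06 in WT cells, both called higher, and Zfp36 fell by 0.42.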

How the data were processed

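Libraries were made from RNA of sorted cells with a stranded mRNA kit, per the labels' protocols. Raw counts per gene were deposited for 12 libraries. The deposited FPKM values are those of the same libraries after scaling by gene length and by library, per the file headers. On 11921 genes with at least 20 counts in every library, FPKM equalled counts over 1 length per gene and 1 factor per library, so both tables are 1 measurement. The submitters' processing notes name STAR, Picard, DESeq2 1.30.0, mm10 and GRCm38; the sources used here give neither their roles nor the counter. Column names give group but no replicate number of the labels, so libraries are numbered by column. No column was left unused.

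Tests used edgeR 4.0.16 in R 4.3.3, with filterByExpr, TMM (factors 0.968 to 1.04) and 1 robust quasi-likelihood fit of all 12 libraries with a coefficient per group, Benjamini-Hochberg over 15905 genes at 0.05. The biological coefficient of variation was 5.21%. Each SE is the log2 fold change over the root of F. Alternatives were DESeq2 1.42.0, its size factors in edgeR, no filter, only the groups compared, limma 3.58.1 on log2 of FPKM plus 1 or 0.1, and each library left out.

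The members, lists and markers were chosen with earlier results of these data known, and the lists come from general knowledge. Named besides the members are Rinl, each list gene called for KO against WT, up to 2 called genes a direction by p in each list between WT effector and WT naive cells, and the 5 genes nearest to Pik3ip1 and to Sgk1, leaving out Gm and Rik models and antigen receptor segments. A few genes that this rule names are not reported here. Coordinates are those of the deposited table and equal GENCODE M21 for all 9 members. Libraries of a group correlated at r of 0.998 to 0.999 over log2 CPM.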

Additional observations from a re-analysis of the deposited data

Results flagged for a closer look

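Galnt10, a glycosyltransferase and 1 of the 5 genes nearest to Sgk1, differed in its KO effect between cell types. It had 115, 111 and 112 CPM in KO effector libraries against 138.5, 163 and 151 CPM in WT effector libraries, and 271, 260.2 and 258 CPM in KO naive libraries against 277.0, 278 and 277 CPM in WT naive libraries. The difference of the log2 fold changes, effector minus naive, was -0.35 ± 0.0696 (edgeR adjusted p = 0.037), made of -0.42 in effector cells and -0.08 in naive cells. It kept this call in 6 of 17 alternatives (-0.40 to -0.29, adjusted p up to 0.20), and lost it with limma and without library 2, 3, 5, 6, 7, 8, 9, 11 or 12. Its nearness to Sgk1 was measured over these same libraries, both genotypes included.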

How the results depend on the processing

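Of the members' log2 fold changes recomputed under the alternatives, 765 kept direction and side of the threshold, 24 lost a call, 3 gained one and 9 changed sign; the sign changes came with a library left out and are in uncalled values. For KO against WT, the value ran from -0.036 to 0.010 for Inpp5d and -0.046 to 0.037 for Akt1 in effector cells, and from -0.023 to 0.018 for Pik3cd, -0.017 to 0.091 for Phlpp1 and -0.046 to 0.15 for Tsc22d3 in naive cells. Genes called for KO against WT in effector cells (503) became 959 with no filter, 230 with only the groups compared, 262 and 139 with limma on log2 of FPKM plus 1 and plus 0.1, and 194 to 662 with a library left out. In naive cells (187) they became 501, 528, 40 and 57 under the same settings, and 66 to 255. For the difference of the KO effects (23) they became 61 with DESeq2, 277 with no filter, 13 and 8 with limma, and 10 to 85. Of the 9 members, those called for KO against WT were 1 in effector cells with only the groups compared and with both limma settings, and 1 to 4 with a library left out; 0 in naive cells with both limma settings, and 0 to 1 with a library left out; and 1 for the difference with no filter. The cause was not tested. With 1 added to FPKM, which shrinks low genes, the log2 fold change of effector against naive in WT cells was 2.16 for Pik3ap1, 1.14 for Prr5l and 0.74 for Klf9. Counts for effector against naive stayed within 1.5 times. All 36 places in the FPKM order were the same with TMM CPM per length. By correlation in place of distance, 1 of the 5 genes nearest to Pik3ip1 and 0 of those nearest to Sgk1 were shared. No paired analysis was possible because the columns carry no replicate numbers of the labels. Depth limits Phlpp1 most, with 238 counts in its shallowest library.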
